A study of Mus musculus with 6 samples.

Results

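A set of 10 genes of the neuromuscular junction and of the denervated muscle fibre were followed in regenerating muscle. They are the muscle acetylcholine receptor subunits Chrna1, Chrnb1, Chrnd, Chrne and Chrng, the synapse organisers Musk, Dok7 and Rapsn, and Ncam1 and Runx1, which muscle fibres switch on when they lose their nerve. They were chosen by symbol, and all 10 had a row among the 16289 genes of the count table. RNA-seq counts came from the whole tibialis anterior, the shin muscle that lifts the foot, of wild-type male C57BL/6J mice aged 12 weeks. Every mouse had received glycerol, which destroys fibres and is followed by regeneration, 14 days before the muscle was taken. One group of 3 had a control treatment (glycerol, the control mice). The other group of 3 also had melatonin, the pineal hormone of the night (glycerol+melatonin, the melatonin mice). The sources used here do not say how much melatonin was given, how or when. No uninjured or denervated muscle was analysed here.

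At the junction, acetylcholine from the motor nerve opens receptors that are packed into the fibre membrane opposite the nerve ending. Agrin from the nerve binds LRP4 and activates the kinase MuSK, whose adaptor Dok-7 is needed inside the fibre, and rapsyn anchors the receptors in clusters. The fetal receptor carries the gamma subunit (Chrng), and the adult receptor carries the epsilon subunit (Chrne) in its place. Electrical activity silences receptor genes outside the synapse, so fibres that are newly formed or have lost their nerve express subunit genes along their length. These genes are driven by myogenic factors that bind E-boxes, and genes of synaptic nuclei also by ETS factors that bind an N-box.

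The windows before the start sites of 4 genes are shown as a description, and the motifs in them were not set against the levels. Chrng and Musk were the genes whose levels differed most in opposite directions, Chrne is the adult counterpart of Chrng, and Chrna1 encodes the subunit that binds acetylcholine. Sequences are from RefSeq on GRCm38.p6 and run 5′ to 3′ on the strand of the gene toward its RefSeq start. Bases that GENCODE places in an exon of the gene were left out. Capitals mark each E-box (CANNTG) and N-box (CCGGAA or its reverse complement TTCCGG), searched on both strands. The windows are chr1:87205561-87205809 (plus strand) for Chrng, chr11:70619217-70619444 (minus strand) for Chrne, chr2:73580339-73580588 (minus strand) for Chrna1 and chr4:58285712-58285959 (plus strand) for Musk.
Chrng: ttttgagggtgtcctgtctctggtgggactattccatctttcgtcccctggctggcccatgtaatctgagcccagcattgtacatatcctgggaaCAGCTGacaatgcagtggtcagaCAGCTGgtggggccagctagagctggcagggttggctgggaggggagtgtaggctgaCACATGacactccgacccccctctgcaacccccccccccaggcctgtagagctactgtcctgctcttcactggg
Chrne: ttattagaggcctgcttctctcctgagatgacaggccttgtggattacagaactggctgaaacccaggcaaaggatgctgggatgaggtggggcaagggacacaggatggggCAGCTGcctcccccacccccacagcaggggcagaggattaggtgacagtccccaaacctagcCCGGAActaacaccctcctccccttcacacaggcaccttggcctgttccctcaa
Chrna1: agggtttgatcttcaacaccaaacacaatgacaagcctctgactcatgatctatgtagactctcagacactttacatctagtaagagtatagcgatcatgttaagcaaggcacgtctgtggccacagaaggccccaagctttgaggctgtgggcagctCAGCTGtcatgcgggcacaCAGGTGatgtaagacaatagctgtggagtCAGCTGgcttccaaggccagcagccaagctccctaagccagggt
Musk: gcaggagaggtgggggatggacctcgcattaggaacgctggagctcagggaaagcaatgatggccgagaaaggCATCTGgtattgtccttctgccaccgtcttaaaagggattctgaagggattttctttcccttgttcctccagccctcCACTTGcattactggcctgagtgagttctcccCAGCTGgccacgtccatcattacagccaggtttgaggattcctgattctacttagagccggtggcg

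Chrng, Chrna1 and Musk each held 3 E-boxes in the 250 bases before the start, and Chrne held 1. An E-box of the form CAGCTG stood at 155 and 132 bases before the Chrng start, at 92 and 44 bases before the Chrna1 start, 138 bases before the Chrne start and 68 bases before the Musk start, counted to the first base of the motif. Of 32851 RefSeq windows of 250 bases, 66.2% held an E-box of any form, with a mean of 1.16 matches per window. CAGCTG, which is a subset of these, was held by 13%. Chrne held an N-box (CCGGAA) 76 bases before the start, as 12% of all windows held one in either orientation. Of the 10 genes, 7 matched the RefSeq table, with 9 windows, and Chrnd, Rapsn and Ncam1 had no entry. In the other windows, Chrnb1 held 3 E-boxes, the upstream Dok7 window 1 and the other Dok7 window 0, the distal Runx1 window 3, and the proximal Runx1 window 1 N-box and 0 E-boxes. CAGCTG was absent from each of these other windows, of Chrnb1, Dok7 and Runx1. GENCODE starts the Chrng gene further upstream than RefSeq does. A match is a description of the letters in these windows only.

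Total counts ran from 39310361 to 48879045 per library. The summed level of 8 mature fibre markers, among them Ckm and Myh4, was 132082 to 162231 CPM (counts scaled to a library total of 1e6 with edgeR's TMM factors) in glycerol and 93670 to 144952 CPM in the melatonin mice, with 0 markers at 0. Of the 8, 6 were lower in the melatonin mice and 2, Myh2 and Pvalb, were higher, and 0 passed the test given below. The labels' extraction text names a different muscle, of the back, from the tissue label, which was used here. In whole muscle, fewer cells of a type and less RNA per cell cannot be told apart. The labels call the 3 libraries of a group biological replicates.

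With 3 mice per group, 0 of the 10 genes passed the test for a difference between the groups (edgeR's quasi-likelihood test, Benjamini-Hochberg adjusted p under 0.05 over 16259 genes). Of all genes tested, 12 passed, or 0.0738%. DESeq2 also called 0 of the 10, where it called 5.01% of 15011 genes. By unadjusted p under 0.05, 3 of the 10 differed in edgeR (Chrng, Chrnb1 and Musk), beside 19.5% of all genes. The groups did not overlap for the same 3, or 30% of the 10, beside 26.0% of all genes. A share so near the background is no result about the 10. Among the 10, 8 had a log2 fold change (glycerol+melatonin over glycerol) above 0, beside 51.7% of all genes, and their median was 0.23, beside 0.016 over all genes. The median was 0.077 without glycerol replicate 2 and 0.37 without glycerol replicate 1. One of the 8, Rapsn, changed sign in 4 of 17 other settings, which left 7 above 0 in those. By role, 5 of 5 receptor subunits, 1 of 3 organisers and both denervation genes were above 0, the organiser being Rapsn.

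**Figure D1:**
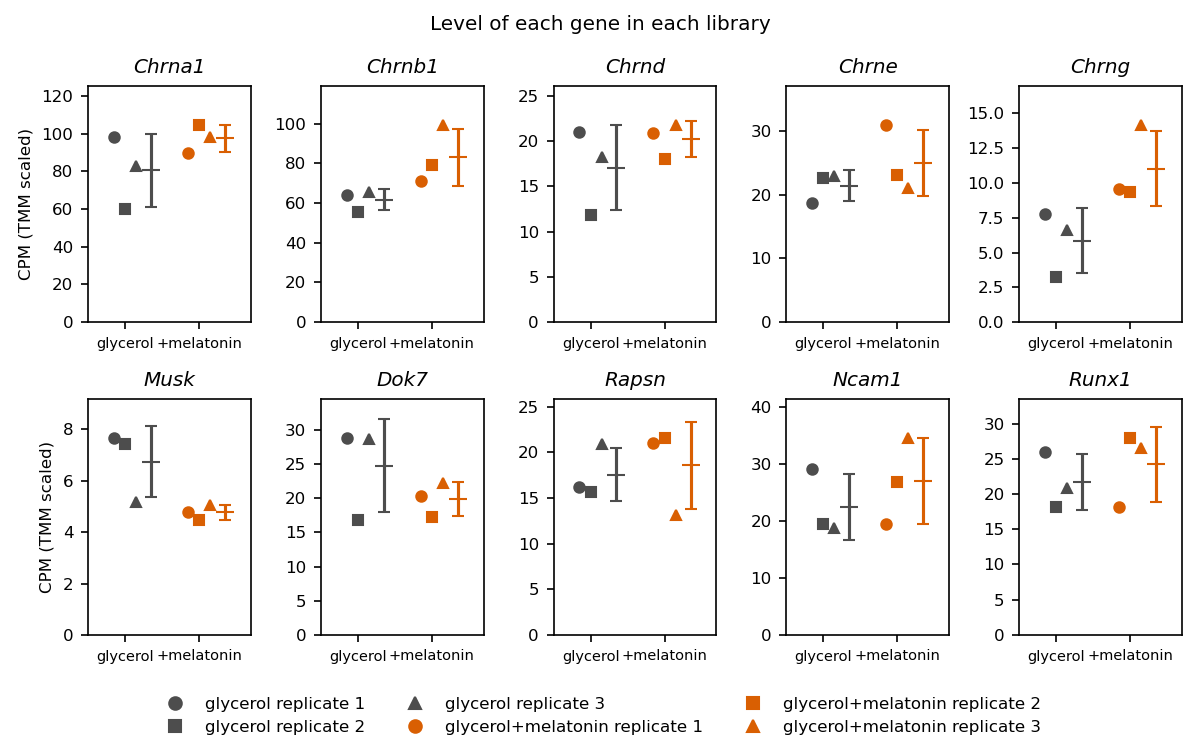
Level of each of the 10 genes in CPM (TMM scaled, axes from 0) in every library; symbols mark the replicate number, and the bar beside each group is the mean with its SD (n = 3). The groups are apart for Chrnb1, Chrng and Musk, and overlap for the other genes.

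Chrng, the fetal subunit (ENSMUSG00000026253, chromosome 1, 87204657 to 87212694 on GRCm38), had the largest fold change of the 10. Its level was 7.73, 3.22 and 6.59 CPM in control mice (glycerol replicates 1, 2 and 3) and 9.57, 9.36 and 14.1 CPM in the melatonin mice. Each melatonin mouse lay above each control mouse, with glycerol replicate 2 lowest and glycerol+melatonin replicate 3 highest. The means were 5.85 ± 2.34 and 11.02 ± 2.69 CPM (SD, n = 3 each), a log2 fold change of 0.91 ± 0.33 (SE) that did not pass (edgeR adjusted p = 0.198). Its 95% interval ran from 0.17 to 1.66. Without glycerol replicate 2 it was 0.62 (edgeR adjusted p = 0.474), and over 17 other settings the adjusted p ran from 0.0872, by DESeq2, to that value.

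Chrne, the adult subunit (ENSMUSG00000014609, chromosome 11, 70614883 to 70619216), was at 18.7, 22.7 and 22.9 CPM in the control mice and 30.8, 23.0 and 21.0 CPM in the melatonin mice. Glycerol+melatonin replicate 1 was high, and the other melatonin mice lay within or next to the range of the controls. The log2 fold change was 0.22 ± 0.19 (edgeR adjusted p = 0.529, 95% interval -0.21 to 0.65). It was 0.042 without that mouse, 0.13 without glycerol replicate 1, 0.33 without glycerol+melatonin replicate 3 and 0.053 after a correction for transcript length. Chrne and Chrng did not have the same order of mice: the mouse with the most Chrne, glycerol+melatonin replicate 1, was not the mouse with the most Chrng.

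Per length of the longest transcript, Chrng made up 19.4%, 7.64% and 14.3% of Chrng and Chrne together in the control mice and 15.3%, 19.1% and 28.1% in the melatonin mice. The adult subunit was thus the more abundant of the pair in each of the 6 mice. The size of the share depends on the length used. As counts without length, the ratio of Chrng to Chrne was 0.414, 0.142 and 0.288 in the control mice. In the melatonin mice it was 0.310, 0.407 and 0.671. The groups overlapped, since glycerol replicate 1 lay above 2 of the melatonin mice. The mean share was 13.8 ± 5.90% in the control mice and 20.8 ± 6.56% in the melatonin mice (SD, n = 3 each). On the log2 scale the ratio of Chrng to Chrne per length was -2.74 ± 0.78 and -1.97 ± 0.56, a difference of 0.77, which is the same without length. That difference was 0.35 without glycerol replicate 2 and 0.47 without glycerol+melatonin replicate 3. It is given as a description, with no test.

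**Figure D2:**
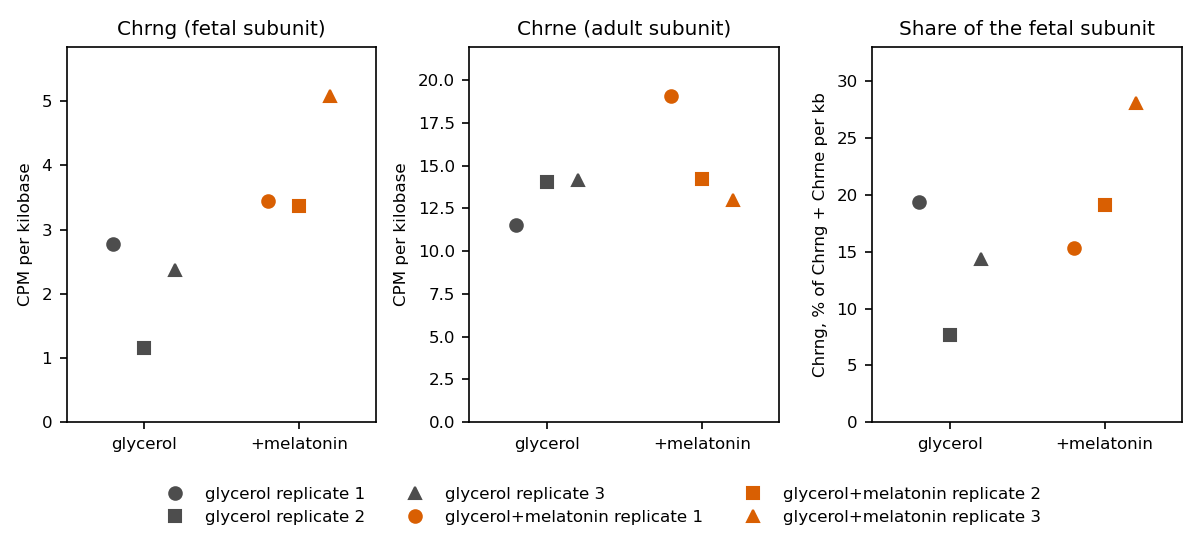
Chrng and Chrne in CPM per kilobase of the longest transcript (axes from 0), and Chrng as a percentage of both, in each library of each group; each symbol is 1 mouse. Chrne stays above Chrng in every mouse, and the share of Chrng runs from 7.64% in glycerol replicate 2 to 28.1% in glycerol+melatonin replicate 3.

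Chrna1, Chrnb1 and Chrnd encode the subunits that both forms of the receptor contain. Chrnb1 (ENSMUSG00000041189, chromosome 11, 69784036 to 69795943) was at 64.0, 55.6 and 65.4 CPM in the control mice and 71.1, 79.1 and 99.1 CPM in the melatonin mice. The groups were apart, with glycerol+melatonin replicate 3 well above the other mice. The means were 61.7 ± 5.29 and 83.1 ± 14.4 CPM (SD, n = 3 each), a log2 fold change of 0.43 ± 0.17 (SE; edgeR adjusted p = 0.225, 95% interval 0.042 to 0.82). Without glycerol+melatonin replicate 3 it was 0.29.

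Chrna1 (ENSMUSG00000027107, chromosome 2, 73563215 to 73580338) was at 98.4, 60.0 and 83.2 CPM in the control mice and 89.9, 104.5 and 98.4 CPM in the melatonin mice. Glycerol replicate 2 was low, while glycerol replicate 1 lay among the melatonin mice, so the groups overlapped. The log2 fold change was 0.28 ± 0.20 (edgeR adjusted p = 0.454, 95% interval -0.17 to 0.73). It was 0.11 without glycerol replicate 2 and 0.45 without glycerol replicate 1. Chrnd (ENSMUSG00000026251, chromosome 1, 87190607 to 87200070), which lies 4586 bases from Chrng on the same strand, was at 21.0, 11.9 and 18.3 CPM in the control mice and 20.9, 18.0 and 21.7 CPM in the melatonin mice. It too was low in glycerol replicate 2 and otherwise overlapped, with a log2 fold change of 0.25 ± 0.22 (SE; edgeR adjusted p = 0.556, 95% interval -0.26 to 0.75). Without glycerol replicate 2 the Chrnd value was 0.042, and without glycerol replicate 1 it was 0.42.

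Musk, the receptor kinase of the agrin signal (ENSMUSG00000057280, chromosome 4, 58285960 to 58374303), was the gene with the lowest fold change of the 10. It was at 7.66, 7.42 and 5.17 CPM in the control mice and 4.77, 4.48 and 5.04 CPM in the melatonin mice. The groups were apart, but glycerol replicate 3 lay next to the melatonin mice, which were close to each other. The spread of those 3 (5.86% of their mean) was below the counting error of their 209 to 243 counts (6.6%). The means were 6.75 ± 1.37 and 4.77 ± 0.279 CPM (SD, n = 3 each), a log2 fold change of -0.50 ± 0.21 (SE; edgeR adjusted p = 0.242, 95% interval -0.98 to -0.023). Leaving out each mouse in turn gave -0.66 to -0.40. Scaled by library size alone it was -0.27, where the median of all genes was 0.23, a shift that holds for all genes under that scaling.

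Dok7, the adaptor that activates MuSK from inside the fibre (ENSMUSG00000044716, chromosome 5, 35056766 to 35087839), was at 28.8, 16.9 and 28.7 CPM in the control mice and 20.3, 17.2 and 22.2 CPM in the melatonin mice. Glycerol replicate 2 was the lowest of the 6 and the other controls the highest, so the groups overlapped. The log2 fold change was -0.32 ± 0.23 (edgeR adjusted p = 0.461, 95% interval -0.84 to 0.21), and -0.53 without glycerol replicate 2. Without glycerol replicate 1 or 3 it was -0.19. Rapsn, the receptor anchor (ENSMUSG00000002104, chromosome 2, 91035620 to 91045729), was at 16.2, 15.6 and 20.9 CPM in the control mice and 21.0, 21.6 and 13.1 CPM in the melatonin mice. Its lowest and highest values were both in melatonin mice, and its log2 fold change was 0.080 ± 0.23 (edgeR adjusted p = 0.875, 95% interval -0.44 to 0.60). Its sign changed with the mouse left out and with a correction for transcript length.

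**Figure D3:**
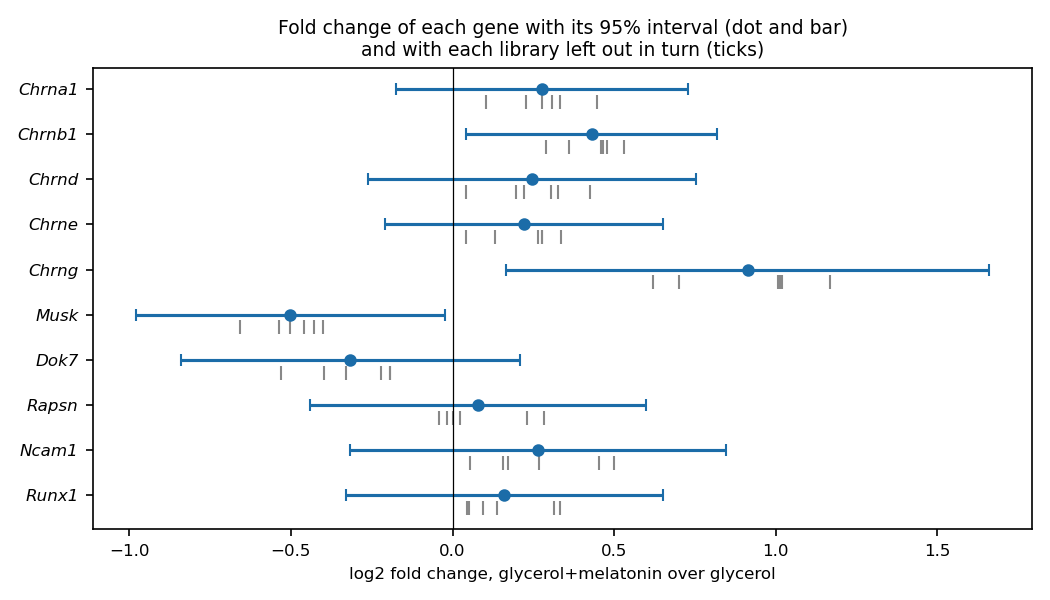
Log2 fold change (glycerol+melatonin over glycerol) of each of the 10 genes from edgeR, as a dot with its 95% interval; the ticks under each dot give the value with each of the 6 libraries left out in turn. The intervals of Chrnb1, Chrng and Musk lie to 1 side of 0 before adjustment, and the ticks of Rapsn fall on both sides.

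Ncam1, a cell adhesion molecule that denervated fibres spread over their surface (ENSMUSG00000039542, chromosome 9, 49502136 to 49798925), was at 29.1, 19.4 and 18.7 CPM in the control mice and 19.4, 26.8 and 34.5 CPM in the melatonin mice. Each group held low and high mice, and the ranges overlapped over most of their length. The log2 fold change was 0.27 ± 0.25 (edgeR adjusted p = 0.582, 95% interval -0.32 to 0.85). It was 0.054 without glycerol+melatonin replicate 3, 0.50 without glycerol replicate 1 and 0.43 with the length correction. Leaving out glycerol+melatonin replicate 1 gave 0.45, glycerol replicate 2 gave 0.17 and glycerol replicate 3 gave 0.16. Muscle stem cells and Schwann cells also express Ncam1. Of 8 stem cell markers 5 were above 0 and 0 passed, and their summed level was 105.7 to 122.1 CPM in the control mice and 129.8 to 141.7 CPM in the melatonin mice, with 0 markers at 0. The mean log2 level of these 8, centred on the 6 libraries, overlapped between the groups. It was -0.002, -0.053 and -0.197 in the control mice and -0.021, 0.220 and 0.052 in the melatonin mice. The sums of 10 Schwann cell markers, of which 8 were below 0 and 0 passed, were 181.1 to 194 CPM and 131.9 to 179.2 CPM, with 0 markers at 0. The mean log2 level of these 10, centred in the same way, overlapped as well. It was -0.022, 0.082 and 0.330 in the control mice and 0.085, -0.258 and -0.217 in the melatonin mice. The part of either cell type in the Ncam1 values was not tested.

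Runx1, a transcription factor that keeps denervated fibres from wasting (ENSMUSG00000022952, chromosome 16, 92601466 to 92826149), was at 26.0, 18.2 and 20.8 CPM in the control mice and 18.1, 27.9 and 26.6 CPM in the melatonin mice. Glycerol+melatonin replicate 1 was the lowest mouse and replicate 2 the highest, so the melatonin group spanned the controls. The log2 fold change was 0.16 ± 0.21 (edgeR adjusted p = 0.707, 95% interval -0.33 to 0.65). It was 0.045, 0.050 and 0.095 without glycerol+melatonin replicate 2, glycerol replicate 2 or glycerol+melatonin replicate 3. It was 0.33 and 0.31 without glycerol+melatonin replicate 1 or glycerol replicate 1, and 0.31 with the length correction. Blood cells express Runx1 as well. Of 8 markers of blood-derived cells 2 were above 0 and 0 passed, with sums of 108.1 to 134.2 CPM in the control mice and 83.5 to 133.2 CPM in the melatonin mice, and 1 marker, S100a9, at 0 in 1 control library. Their mean log2 level, centred on the 6 libraries, was -0.294, -0.173 and -0.065 in the control mice and -0.265, 0.536 and 0.261 in the melatonin mice. Melatonin replicates 2 and 3 were high for this mean as for Runx1. Glycerol replicate 1, with Runx1 at 26.0 CPM, had the lowest mean of the 6 libraries. S100a9, a neutrophil gene, was at 0.0494, 0 and 0.0980 CPM in the control mice and 0.320, 1.64 and 7.23 CPM in the melatonin mice (edgeR adjusted p = 0.132). Without S100a9, a choice made after seeing the data, the mean of the other 7 markers was -0.052, 0.241 and 0.123 in the control mice and -0.298, 0.301 and -0.315 in the melatonin mice, with replicate 3 now the lowest. The part of these cells in the Runx1 values was not tested.

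Mice differed in which of the 10 genes were high. Glycerol replicate 2 was the lowest of the 6 mice for 5 genes (Chrna1, Chrnb1, Chrnd, Chrng and Dok7) and the highest for 0, while its Chrne was near the middle. Glycerol+melatonin replicate 3 was the highest for 4 (Chrnb1, Chrnd, Chrng and Ncam1) and the lowest for Rapsn. The range over the 6 mice was 4.38-fold for Chrng and 1.54-fold to 1.84-fold for the other genes. As a description over 6 libraries that share their scaling, the log2 CPM of Chrng had a Pearson r of 0.892 with Chrna1, 0.904 with Chrnb1 and 0.905 with Chrnd. It was 0.658 with Ncam1, 0.600 with Runx1, 0.224 with Dok7, 0.055 with Chrne, -0.047 with Rapsn and -0.646 with Musk. Over so few libraries, genes outside the 10 reached 0.993, as given below. Markers of newly formed fibres (8 tested, 6 above 0 and 0 passing) had their lowest mean log2 level in the same control mouse. The mean of the 8, centred on the 6 libraries, was 0.006, -0.508 and -0.069 in the control mice and 0.033, 0.312 and 0.225 in the melatonin mice. Not every marker was low in glycerol replicate 2: Actc1 was at 2906 CPM there, its highest value, and Cdh15 at 14.55 CPM, above the other controls. The summed level of these markers, most of it Actc1, was 2870 to 3174 CPM in the control mice and 1810 to 2663 CPM in the melatonin mice, with 0 at 0. The markers did not move alike: the 3 with the smallest p were Mymx (log2 0.99), Myog (0.64) and embryonic myosin Myh3 (0.83), while Myh8 was at 0.12, Cdh15 at -0.053 and Actc1 at -0.49, its groups apart with lower values in the melatonin mice. Adjusted p by edgeR was 0.168 to 0.883 over these markers. Of 6 stromal markers 5 were below 0 and 0 passed, and their sums did not overlap, at 6570 to 7217 CPM in the control mice and 4675 to 5693 CPM in the melatonin mice, with 0 at 0. The part of new fibres or stromal cells in the receptor values was not tested.

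The genes most like Chrng over the 6 libraries, among 12620 genes with a mean of at least 1 CPM, were Nipsnap1, Ccnb2, Zfp444, Ccdc138 and Ifi209. Their Pearson r of log2 CPM with Chrng was 0.989 to 0.993, given as a measure of likeness. Their log2 fold changes were 0.29 (Ccnb2) to 0.76 (Ccdc138), with edgeR adjusted p from 0.201 to 0.451.

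Per length of the longest transcript, averaged over the 6 libraries, the order of levels was Chrnb1, Chrna1, Chrne, Rapsn, Dok7, Chrnd, Runx1, Ncam1, Chrng and Musk. Chrnb1 was at 33.6 ± 7.07 CPM per kilobase (SD, n = 6), Chrna1 at 20.3 ± 3.66, Chrne at 14.4 ± 2.53, and Musk at 1.68 ± 0.409. Chrng ran from 1.16 to 5.08 CPM per kilobase. The range of Chrnb1 lay above that of Chrna1 (25.8 against at most 23.8 CPM per kilobase), and the ranges of all other neighbours in this order overlapped. Within a mouse, by this length, Chrne was above Rapsn, Dok7 above Chrnd and Chrnd above Runx1 in 6 of 6 mice. Chrng was above Musk in 5 of 6, glycerol replicate 2 being the exception. The order depends on the length used: by coding length Chrna1 was the highest, at 65.0 ± 11.7 CPM per kilobase, ahead of Chrnb1 at 48.2 ± 10.1. By coding length Runx1 came in place 3, at 16.4 CPM per kilobase, and Chrnd in place 7, at 11.9. Chrne was then above Rapsn, and Dok7 above Chrnd, in only 3 of 6 mice.

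**Figure D4:**
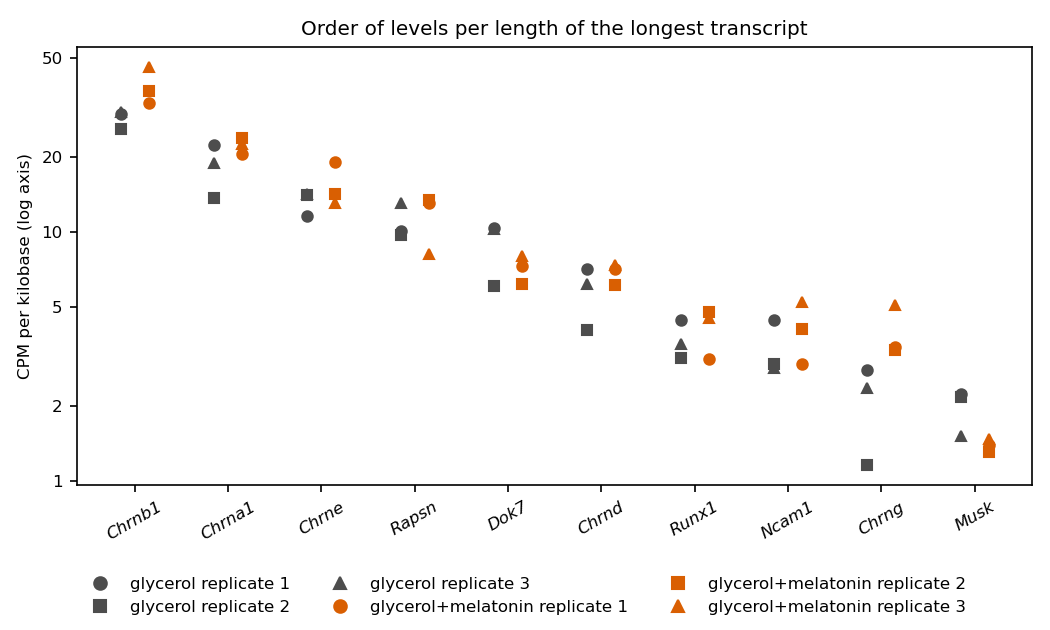
CPM per kilobase of the longest transcript (log axis) of the 10 genes in each of the 6 libraries, ordered by their mean; colours mark the group and symbols the replicate. Chrnb1 stands above all other genes in both groups, and Chrng and Musk have the lowest means.

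Beside these 10, 75 genes of the junction and of the response to lost nerve activity were listed in 7 groups by role, and 65 of them were tested. Of the 65, 0 passed by edgeR (the smallest adjusted p was 0.0653, for Id1), and 15 had an unadjusted p under 0.05, beside the 19.5% over all genes. By group, the genes with such a p were 1 higher and 2 lower of 10 in the agrin-MuSK pathway, 0 of 8 in the basal lamina and 0 higher and 3 lower of 13 in the scaffold. They were 0 higher and 1 lower of 6 ETS and neuregulin genes, 5 higher and 0 lower of 14 in the response to lost activity, 3 higher and 0 lower of 11 E-box factors and Id genes, and 1 higher and 0 lower of 4 neuronal subunits. Myog is in 2 of these groups. Over all genes, 10.1% were higher and 9.39% lower by that p. The median log2 fold change of the 65 was -0.0096. The 2 groups of mice did not overlap for 11 of the 65 with higher and 9 with lower values in the melatonin mice, beside 26.0% of all genes in either direction. The genes named in each group are the 3 with the smallest p, so a lack of overlap among them largely follows from that choice.

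In the agrin-MuSK pathway, 6 of 10 tested genes were above 0 and 0 passed. Agrn, the gene that encodes agrin, was at 55.7 ± 3.83 CPM in the control mice and 76.2 ± 10.1 CPM in the melatonin mice (log2 0.45 ± 0.15, edgeR adjusted p = 0.189). Lrp4, the agrin receptor, was at 10.3 ± 1.09 and 7.93 ± 0.119 CPM (-0.37 ± 0.16, edgeR adjusted p = 0.255). Crkl, an adaptor that binds Dok-7, was at 18.2 ± 3.49 and 9.96 ± 1.73 CPM (-0.87 ± 0.21, edgeR adjusted p = 0.137). For each of these 3, picked by p, the groups did not overlap. Over the pathway that held for 2 higher and 3 lower of 10, beside 26.0% of all genes in either direction.

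In the synaptic basal lamina, 4 of 8 genes were above 0, with 0 passing and 0 whose groups did not overlap. Log2 fold changes were 0.37 for Lama5, -0.31 for Hspg2 and -0.15 for Nid2 (edgeR adjusted p 0.348 to 0.609). Ache, the esterase that clears acetylcholine, was at 48.0 ± 11.8 and 48.8 ± 5.04 CPM, and its collagen tail Colq at 13.4 ± 2.28 and 14.4 ± 0.631 CPM, both chosen after their values were seen.

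In the postsynaptic scaffold, 9 of 13 genes were below 0 (median -0.25) and 0 passed. Utrn, the dystrophin relative that is concentrated at the junction, was at 56.9, 27.1 and 14.1 CPM in the control mice and 9.27, 7.86 and 14.0 CPM in the melatonin mice (log2 -1.65 ± 0.46, edgeR adjusted p = 0.159). The groups were apart only by the small gap between glycerol replicate 3 and glycerol+melatonin replicate 3. The syntrophin gene Sntb1 was at -1.58 ± 0.34 (edgeR adjusted p = 0.128) and Pdzrn3, a ubiquitin ligase that acts on MuSK, at -0.85 ± 0.20 (edgeR adjusted p = 0.137). Among the ETS and neuregulin genes, 5 of 6 tested were below 0 (median -0.32) and 0 passed, with Etv5 at -0.43 ± 0.16 (edgeR adjusted p = 0.211), Gabpa at -0.33 ± 0.18 and Etv4 at -0.31 ± 0.18. Nrg1 and Erbb4 had no row.

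In the response to lost nerve activity, 10 of 14 tested genes were above 0 (median 0.29) and 0 passed. Tnfrsf12a, the TWEAK receptor that denervation induces, was at 16.5, 32.8 and 36.5 CPM in the control mice and 75.4, 88.5 and 82.5 CPM in the melatonin mice (log2 1.52 ± 0.28, edgeR adjusted p = 0.111). Gadd45a was at 64.5 ± 0.342 and 100.1 ± 13.9 CPM (0.63 ± 0.15, edgeR adjusted p = 0.139) and Cdkn1a at 99.4 ± 8.56 and 148.4 ± 29.4 CPM (0.58 ± 0.19, edgeR adjusted p = 0.182). For these 3, picked by p, the groups did not overlap. Over this list that held for 4 higher and 0 lower of 14, beside 26.0% of all genes in either direction. The ubiquitin ligases of wasting muscle, chosen after their values were seen, varied widely between mice, with Fbxo32 at 355.5 ± 137.6 and 288 ± 94.0 CPM and Trim63 at 404.2 ± 185.7 and 441.6 ± 154.7 CPM.

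Among the E-box factors and their Id inhibitors, 6 of 11 tested were above 0 and 0 passed. Myog, which binds E-boxes of receptor genes, was at 33.4, 22.6 and 28.3 CPM in the control mice and 33.1, 45.0 and 53.1 CPM in the melatonin mice (log2 0.64 ± 0.22, edgeR adjusted p = 0.188). Glycerol replicate 2 was again lowest, and glycerol+melatonin replicate 1 lay just under the highest control. Id1, an inhibitor of E-box factors, was at 17.2, 18.9 and 22.6 CPM in the control mice and 38.9, 51.0 and 56.4 CPM in the melatonin mice (1.32 ± 0.19, edgeR adjusted p = 0.0653), with the groups well apart. Id3 was at 0.81 ± 0.22 (edgeR adjusted p = 0.156), and its groups did not overlap either. Of 11 neuronal receptor subunit genes, 4 were tested and 0 passed, with Chrna10 at 0.66 ± 0.25 (edgeR adjusted p = 0.211), Chrnb2 at 0.58 ± 0.37 and Chrna4 at -0.52 ± 0.44.

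**Figure D5:**
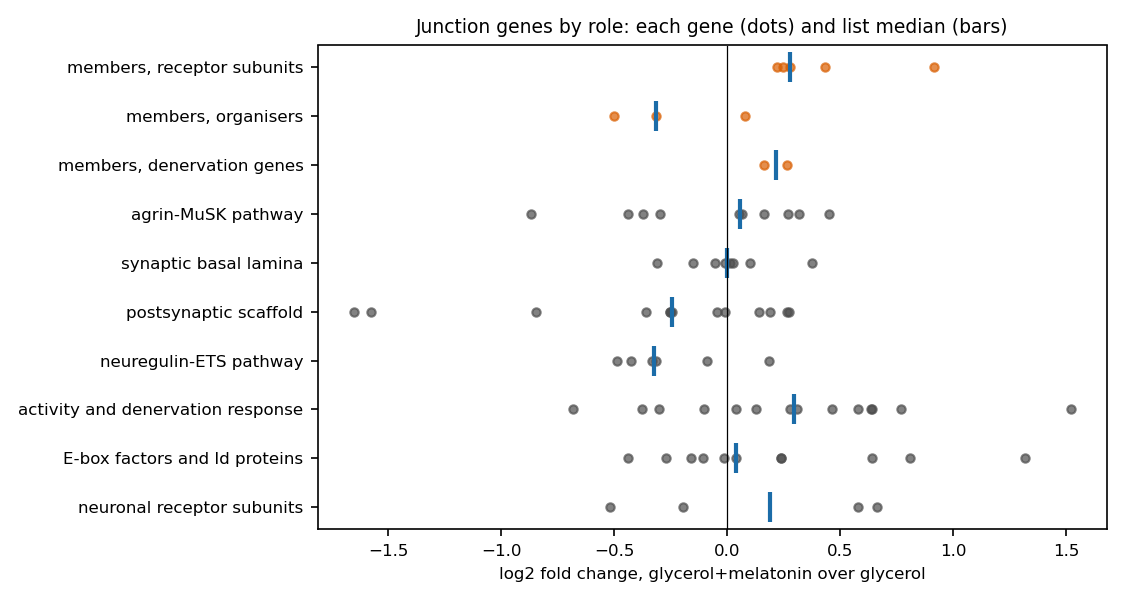
Log2 fold change (glycerol+melatonin over glycerol) of the 10 genes (orange, in 3 roles) and of the other tested junction genes (grey) by group; each dot is a gene and each blue bar the median of its group. The receptor subunits all lie above 0, and the scaffold and ETS groups have medians below 0; 0 of the genes shown passed over all genes.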

How the data were processed

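RNA-seq read counts per gene were deposited by the authors as 1 table of raw counts for 6 libraries. Per the submitters' processing notes the genome build was mm10 and the tools included HISAT2 2.0 and StringTie 1.3.3b. The sources used here do not give the counting tool, the annotation, or how strand and multiply matching reads were treated. Symbols and lengths came from GENCODE M21 on GRCm38 (16260 of 16289 genes matched). Rapsn shares 4 exon bases with Gm13778 on the other strand, Ncam1 417 with Gm11149 and Runx1 106 with Gm26626.

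Counts of all 6 libraries were fitted in R 4.3.3 by the quasi-likelihood method of edgeR 4.0.16, after TMM scaling. The filter filterByExpr kept 16259 genes and all 10 members, with Benjamini-Hochberg adjustment over all genes. The standard error is the size of the log2 fold change over the square root of F. Alternatives were other scalings and filters, DESeq2 1.42.0, limma-voom (limma 3.58.1), a replicate block, a length correction (a spline with 4 degrees of freedom per library), summed overlapping genes and each library left out. Scripts were tested on simulated counts. The members, lists and rules were chosen with earlier results of these data known. Named genes were all members, the 3 genes with the smallest p in each list, and the 5 most like Chrng (Pearson r, mean of at least 1 CPM). Outside that rule, Ache, Colq, Fbxo32, Trim63 and the marker genes Mymx, Myh3, Myh8, Cdh15, Actc1, Ckm, Myh2, Myh4, Pvalb and S100a9 were chosen after their values were seen. A prior count of 2 was used for log2 CPM. Totals were 39310361 to 48879045 per library. For the members, counting error was below the spread between mice in both groups, except for Musk in the melatonin mice.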

Additional observations from a re-analysis of the deposited data

How the results depend on the processing

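Over 17 other settings, 0 of the 10 genes passed under each, the lowest adjusted p being 0.0872 (Chrng, DESeq2). Of 170 values of single genes, 166 kept their sign and 4 turned, all 4 of Rapsn: -0.086 with the length correction, -0.11 with the block and length correction, -0.018 without glycerol+melatonin replicate 1 and -0.041 without replicate 2 (up to 0.28 without replicate 3). The median of the 10 was 0.43 with library size alone, where the median of all genes was 0.23. Without glycerol replicate 2 it was 0.077. Over all genes, the count that passed was 752 by DESeq2, 7 with the length correction, and 0 with the replicate block (2991 with an unadjusted p under 0.05) or with the block and length correction (2675). It ran from 6 to 27 with 1 library left out. The block changed no call among the 10. Same-numbered libraries did not deviate together (r of -0.0166, 0.00612 and -0.0545), so the numbers were not taken as pairs. By coding length, chosen after seeing the data, Chrna1 came in place 1 rather than 2, and Runx1 in place 3 rather than 7.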
